A study of Homo sapiens with 36 samples.

Results

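The 10 genes described here make long noncoding RNAs, transcripts that are not translated into protein: H19, NEAT1, MALAT1, GAS5, SNHG1, SNHG5, SNHG8, SNHG12, SNHG15 and EPB41L4A-AS1. They were chosen by symbol out of 58243 genes in the count table, each symbol matched 1 Ensembl identifier, and all 10 passed the filter on low counts in every fit. H19 was on the list because earlier work on these data had seen it differ between the compounds 3A4 and 1E5 in BxPC-3 cells. For that contrast all 10 genes are therefore given as values without a test, and so is H19 in both contrasts against DMSO that share those libraries.

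The study sequenced libraries made from total RNA of 3 established lines of human pancreatic ductal adenocarcinoma, PANC-1, MIA PaCa-2 and BxPC-3. Whether the library kit selected part of that RNA is not reported here. The aim was to compare ligands of the liver X receptors (LXR), nuclear receptors that sense oxidised cholesterol. In each line 1 group was given DMSO as vehicle, 1 GW3965, a synthetic agonist of LXR, and 1 each the compounds 1E5 and 3A4, known here by their code names and labelled as inverse agonists, ligands that push a receptor below its resting activity. Ligands were given at 10 µM for 48 h, and each of the 12 groups held 3 libraries, 36 in all. BxPC-3 grew in RPMI 1640 and the other lines in high-glucose DMEM with HEPES, both with 10% fetal bovine serum (37 °C, 5% CO2). Cell line and medium therefore cannot be told apart for BxPC-3 against the others. The labels give the genotype as NA. They call the libraries of a group biological replicates without naming separate cultures. The p-values measure only the spread among libraries, which may be technical.

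Library totals ran from 19605935 to 25888304 counts in BxPC-3, from 2701393 to 25503827 in MIA PaCa-2, where the DMSO and GW3965 libraries were the shallowest, and from 14960970 to 26026684 in PANC-1. Of the 6 epithelial markers, all were present in BxPC-3 and PANC-1. In MIA PaCa-2 the defining epithelial genes EPCAM (group means of at most 0.0368 CPM) and CDH1 (at most 0.296 CPM) were near 0, while the keratins KRT8, KRT18 and KRT19 were present. The leukocyte marker PTPRC did not exceed 0.0823 CPM in any library. Other markers of other cell types were not all near 0. CD68 was present in each line, with its lowest group mean at 6.45 CPM (MIA PaCa-2) and its highest at 54.6 CPM (PANC-1). COL1A1 peaked at 162.5 CPM in a PANC-1 library, against 10.4 CPM for BxPC-3 and 2.13 CPM for MIA PaCa-2. In PANC-1, replicate 2 of the 1E5 group stood apart for several of the 10 genes, and its 1E5 results against DMSO are given with and without it. The structural RNA RN7SK was high in single libraries, at 87.2 CPM in BxPC-3 GW3965 replicate 1 against 2.40 and 3.13 in the others of its group.

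Small nucleolar RNAs (snoRNAs) guide the chemical modification of ribosomal RNA, and most are cut from the introns of host genes. GAS5, SNHG1, SNHG5, SNHG8, SNHG12 and SNHG15 are such hosts, and EPB41L4A-AS1 holds the snoRNA SNORA13. Once spliced, many host transcripts are scanned by ribosomes, read as faulty and destroyed by nonsense-mediated decay, and several begin with a tract of C and T that ties their translation to cell growth. NEAT1 is the scaffold of nuclear bodies called paraspeckles, MALAT1 is a retained nuclear RNA found at splicing speckles, and H19 is a maternally expressed imprinted RNA of 11p15, abundant in fetal tissue and some tumours, that carries the microRNA miR-675.

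Coordinates are GRCh38 gene models of GENCODE release 29. H19 (ENSG00000130600) lies on chromosome 11 from 1995176 to 2001470, minus strand. NEAT1 (ENSG00000245532) is at 65422774 to 65445540 and MALAT1 (ENSG00000251562) at 65497688 to 65506516 of chromosome 11, both on the plus strand. SNHG1 (ENSG00000255717) is also on chromosome 11, from 62851988 to 62855914, minus strand. GAS5 (ENSG00000234741; 173863900 to 173868882) and SNHG12 (ENSG00000197989; 28578538 to 28583132) are on the minus strand of chromosome 1. SNHG5 (ENSG00000203875) is at 85660950 to 85678748 of chromosome 6, SNHG8 (ENSG00000269893) at 118278709 to 118279823 of chromosome 4 and SNHG15 (ENSG00000232956) at 44983023 to 44986961 of chromosome 7. EPB41L4A-AS1 (ENSG00000224032) is at 112160526 to 112164276 of chromosome 5, and all 3751 bases of it lie on the strand opposite the gene EPB41L4A. GAS5 shares 801 bases with the oppositely transcribed ZBTB37. The strand setting of the counting is not given in the sources used here, so reads from such pairs cannot be told apart. EPB41L4A held 29.6% as many counts as EPB41L4A-AS1 over all libraries, and ZBTB37 held 6.69% as many as GAS5.

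The start regions of 6 hosts are shown because the data below bear on whether these RNAs move together and because the first transcribed bases are what the C and T tract refers to. Each run holds 30 bases before the annotated start in lower case and 30 from the start onward in capitals, taken from RefSeq (GRCh38.p14), 5′ to 3′ on the transcribed strand. They cover chr1:173869016-173869075 (GAS5, minus strand), chr11:62855856-62855915 (SNHG1, minus), chr6:85678704-85678763 (SNHG5, minus), chr4:118278732-118278791 (SNHG8, plus), chr1:28581844-28581903 (SNHG12, minus) and chr5:112160496-112160555 (EPB41L4A-AS1, plus).
GAS5: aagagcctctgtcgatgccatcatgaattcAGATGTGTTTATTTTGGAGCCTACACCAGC
SNHG1: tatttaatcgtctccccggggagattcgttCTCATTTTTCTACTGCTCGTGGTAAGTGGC
SNHG5: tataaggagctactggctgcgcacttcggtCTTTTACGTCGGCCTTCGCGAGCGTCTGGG
SNHG8: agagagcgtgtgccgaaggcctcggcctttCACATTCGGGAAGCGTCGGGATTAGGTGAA
SNHG12: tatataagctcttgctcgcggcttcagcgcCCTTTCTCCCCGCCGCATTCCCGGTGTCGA
EPB41L4A-AS1: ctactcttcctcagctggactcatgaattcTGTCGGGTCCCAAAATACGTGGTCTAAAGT

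A C at the annotated start followed by at least 4 bases that are C or T was found in SNHG5 and SNHG12, which makes 2 of the 8 genes with a start region in the RefSeq table, against 4.07% of all 35097 start regions. Among the 16 other snoRNA host long noncoding RNAs with a start region 5 had it, and among 17 protein-coding snoRNA hosts 11 had it, including RPL10 and TAF1D. The run of C and T from the start was 11 bases in SNHG12, 5 in SNHG5 and 3 in SNHG1. The letters TATAA, searched on both strands of the 300-base window, were present in MALAT1, SNHG1, SNHG5, SNHG8 and SNHG12, against 20.4% of all windows. Annotated starts differ between sources: that of GAS5 in RefSeq lies 163 bases upstream of the GENCODE model, and that of SNHG12 lies 1259 bases inside it. These matches describe letters only, and for GAS5 they describe a window whose start is uncertain.

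H19 is the precursor of 2 mature microRNAs, which are shown with the seed (bases 2 to 8, the part that pairs with targets) in capitals. They lie on the minus strand at chr11:1996800-1996822 (miR-675-5p) and chr11:1996768-1996787 (miR-675-3p), GRCh38.p14, and come from RefSeq.
miR-675-5p: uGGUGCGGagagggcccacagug
miR-675-3p: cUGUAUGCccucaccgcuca
The 2 arms share no seed. The precursor gene MIR675 was listed with a count of 1 in 35 of the 36 libraries, so these data say nothing of the microRNA itself.

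Without ligand, the order of the 10 RNAs differed by line. Levels of different genes were set side by side as counts per 1000000 counts and per kilobase of exon (CPM per kb). The length was that of all annotated exons together, 22767 bases for NEAT1 and 3631 for GAS5. Which transcripts were present was not tested, so the order is a rough one. H19 was the highest in PANC-1, at 94.3 ± 17.4 (SD, n = 3), and its range did not overlap that of the next gene, MALAT1 (32.6 ± 26.3). In BxPC-3 H19 was also first, at 35.9 ± 18.6 CPM per kb, but its range overlapped that of SNHG8 (32.6 ± 0.836). In MIA PaCa-2 GAS5 led at 59.0 ± 1.86 CPM per kb, apart from SNHG5 (42.0 ± 2.28), and H19 was the lowest of the 10 at 3.53 ± 0.65. NEAT1 and MALAT1 stood at 5.21 ± 0.855 and 17.5 ± 0.812 CPM per kb there. EPB41L4A-AS1 was the lowest in BxPC-3 (3.82 ± 1.12) and PANC-1 (1.47 ± 0.428).

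**Figure D1:**
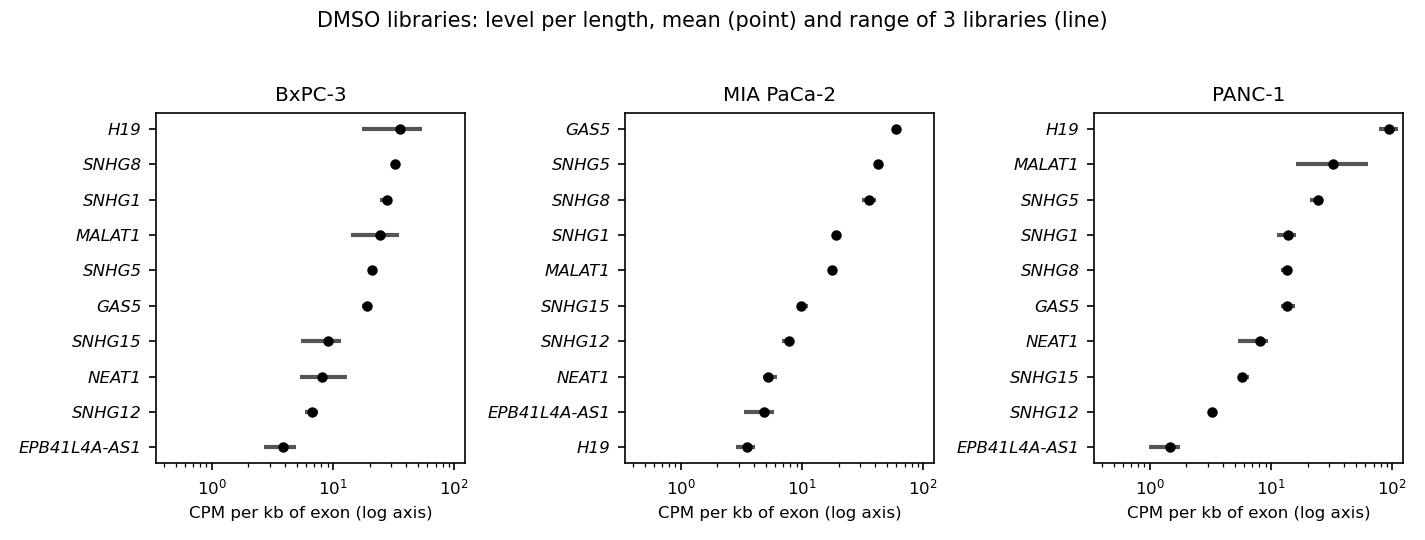
Level of each RNA in the 3 DMSO libraries of each line, in CPM per kb of exon on a log axis; points are means and lines the range of 3 libraries. With all annotated exons as the length, H19 is first in BxPC-3 and PANC-1 and last in MIA PaCa-2, where GAS5 is first.

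Compared between lines in 1 fit of all libraries, 7 of the 10 differed between the DMSO groups of BxPC-3 and PANC-1 (52.5% of all genes tested were called in this comparison), 7 between MIA PaCa-2 and PANC-1 (51.2% of all genes) and 4 between BxPC-3 and MIA PaCa-2 (57.4% of all genes). The first 2 counts lie above these shares and the third below. Levels from here on are CPM, counts per 1000000 after TMM scaling of the library totals, and compare a gene only with itself. H19 was at 104, 158 and 49.8 CPM in the 3 BxPC-3 DMSO libraries, at 10.5, 11.9 and 8.21 in MIA PaCa-2 and at 269, 326 and 225 in PANC-1, with no overlap among the lines. It was 26.2-fold lower in MIA PaCa-2 than in PANC-1 (log2 -4.71 ± 0.504 SE; edgeR adjusted p = 4.86e-09) and 2.63-fold lower in BxPC-3 than in PANC-1 (adjusted p = 0.00632), although the latter call ended without BxPC-3 DMSO replicate 3 (0.0524). In bulk libraries such as these, fewer cells that make an RNA and less of it per cell cannot be told apart.

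Of the hosts, GAS5, which was first found as an RNA of growth-arrested cells, had 207, 220 and 216 CPM in MIA PaCa-2 DMSO libraries against 43.7, 56.9 and 45.5 in PANC-1 and 71.4, 71.4 and 62.9 in BxPC-3. The MIA PaCa-2 libraries lay above all others, 4.40-fold over PANC-1 (log2 2.14 ± 0.175 SE; edgeR adjusted p = 2.68e-11) and 3.12-fold over BxPC-3 (adjusted p = 2.65e-09). PANC-1 had the lowest mean of the 3 lines for 6 of the 7 host and antisense RNAs. SNHG8 was 2.40-fold higher in BxPC-3 and 2.65-fold higher in MIA PaCa-2 than in PANC-1, and SNHG12 2.06-fold and 2.39-fold higher. The exception was SNHG5, at 58.7 ± 2.78 CPM in BxPC-3 and 67.9 ± 8.38 in PANC-1 (adjusted p = 0.192). NEAT1 and MALAT1 passed in no pair of lines: NEAT1 had means of 184 CPM in PANC-1, 119 in MIA PaCa-2 and 185 in BxPC-3, with log2 differences of 0.01 for BxPC-3 against PANC-1 (95% interval -0.62 to 0.64), -0.63 for MIA PaCa-2 against PANC-1 (-1.27 to 0.01; adjusted p = 0.0939) and 0.64 for BxPC-3 against MIA PaCa-2 (0.00 to 1.28; 0.0822). The last passed in 4 of 12 alternatives and the second in 1. MALAT1 in MIA PaCa-2 against PANC-1 (log2 -0.90; 0.104) passed in 2, without PANC-1 DMSO replicate 1 or 3. Over all genes the median log2 difference was -0.125 for MIA PaCa-2 against PANC-1 and 0.129 for BxPC-3 against MIA PaCa-2. The SNHG15 calls against PANC-1 and the GAS5 and EPB41L4A-AS1 calls of BxPC-3 against PANC-1 each ended without at least 1 library (highest adjusted p over all alternatives = 0.203, 0.11, 0.0732 and 0.0625), as did the SNHG1 call of BxPC-3 against MIA PaCa-2 (0.112).

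The comparison of 1E5 with DMSO asks what this compound changed. In PANC-1, 9 of the 10 RNAs changed, 8 higher and H19 lower, where 39.1% of all genes were called (19.7% higher and 19.3% lower). The median log2 fold change of the 10 was 1.62, against 0.0172 over all genes. GAS5 went from 43.7, 56.9 and 45.5 CPM with DMSO to 477, 879 and 566 with 1E5. Every 1E5 library was thus far above every DMSO library, and replicate 2 was the highest with 1E5. The rise was 13.3-fold (log2 3.73 ± 0.232 SE; edgeR adjusted p = 1.03e-06), and 10.7-fold without 1E5 replicate 2.

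SNHG8, host of SNORA24, rose in PANC-1 from 13.4, 13.04 and 11.1 to 45.0, 71.3 and 49.2 CPM (4.43-fold; edgeR adjusted p = 2.33e-05), and 3.74-fold without 1E5 replicate 2. SNHG1, whose introns hold SNORD22 and SNORD25 to SNORD31, rose from 59.8, 42.1 and 52.4 to 131, 336 and 159 CPM. The 336 CPM of replicate 2 was more than the sum of the others, and the rise of 4.10-fold (adjusted p = 0.000575) was 2.80-fold without that library (adjusted p = 0.000247). SNHG15, host of SNORA9, rose 3.94-fold from 19.3, 19.5 and 24.2 to 52.9, 107 and 86.7 CPM (adjusted p = 0.000322). SNHG5, host of SNORD50A and SNORD50B, rose 2.61-fold from 71.5, 73.9 and 58.3 to 140, 227 and 161 CPM (adjusted p = 0.000102). EPB41L4A-AS1 rose 3.63-fold (adjusted p = 0.000739), from between 3.28 and 5.91 to between 12.9 and 25.6 CPM. The smallest rise was that of SNHG12, host of SNORD99 and several SNORA RNAs, from 13.9 ± 0.74 to 21.9 ± 4.84 CPM (1.59-fold; adjusted p = 0.035). Without 1E5 replicate 2 the rises of SNHG15, SNHG5 and EPB41L4A-AS1 were 3.30-fold, 2.20-fold and 2.79-fold and still passed. The SNHG12 call ended without 1E5 replicate 2 (1.37-fold) or any DMSO library (highest adjusted p = 0.163 over all alternatives). In all, the groups did not overlap for 9 of the 10 RNAs, as for 47.6% of all genes.

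In MIA PaCa-2, 1E5 changed 6 of the 10 RNAs, 5 higher and H19 lower, where 47% of all genes were called (23.6% higher and 23.4% lower), and the median log2 fold change of the 10 was 0.94, against 0.0496 over all genes. GAS5 rose from 207, 220 and 216 to 892, 824 and 978 CPM, 3.94-fold (log2 1.98 ± 0.157 SE; edgeR adjusted p = 1.99e-06). SNHG5 rose 2.51-fold from 112, 117 and 125 to 333, 284 and 328 CPM (adjusted p = 4.92e-06) and SNHG8 2.05-fold from 29.1, 37.5 and 32.6 to 70.9, 70.7 and 74.7 CPM (adjusted p = 0.000183). In these 3 hosts the 1E5 libraries lay close together and clear of DMSO. The other hosts did not pass: SNHG1 stood at 92.4 ± 11.3 against 71.5 ± 6.76 CPM, SNHG12 at 35.5 ± 0.481 against 33.3 ± 3.67 and SNHG15 at 30.5 ± 3.43 against 35.5 ± 4.57. Their 95% intervals of the log2 change were -0.05 to 0.61, -0.32 to 0.33 and -0.72 to 0.10. EPB41L4A-AS1 was at 30.9 ± 2.27 against 16.1 ± 4.46 CPM (adjusted p = 0.0881) and passed with DESeq2 and with only the compared groups. The groups did not overlap for 8 of the 10, as for 60.8% of all genes. With 1 library left out the count of RNAs called stayed at 6 in MIA PaCa-2 and was 7 to 8 in PANC-1.

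Other measures moved with 1E5 in the same libraries. The share of mitochondrial counts was 2.04% ± 0.72 (SD, n = 3) against 7.545% ± 0.03 with DMSO in MIA PaCa-2 and 4.395% ± 1.995 against 6.82% ± 0.708 in PANC-1. The PANC-1 groups overlapped: 1E5 replicate 2 was at 6.589%, within the 5.998% to 7.228% of DMSO, and replicates 1 and 3 were at 2.689% and 3.907%. In MIA PaCa-2 the DMSO libraries held 3609582 to 10996848 counts and the 1E5 libraries 23675670 to 25503827. Of the epithelial markers, KRT8, KRT18 and KRT19 fell in both lines, KRT8 to 302 ± 26.5 from 2030 ± 380 CPM in PANC-1. The other 3 of the 6 tested in PANC-1 had log2 changes above 0, at most 0.61, and did not pass. Of 4 tested in MIA PaCa-2 the remaining 1 was at 0.68 and did not pass. Of all genes 19.3% fell in PANC-1 and 23.4% in MIA PaCa-2. Of 10 markers of other cell types 2 passed the filter in PANC-1, where CD68 rose to between 42.95 and 72.8 CPM from between 8.68 and 14.4, and COL1A1 fell to between 4.56 and 11.1 CPM from between 46.35 and 162.5, while PTPRC, PECAM1, DCN and LUM stayed at or near 0. The 5 small structural RNAs tested in PANC-1 had a median log2 change of 3.35 with 1E5, all 5 above 0 and none passing, and -2.38 for 3A4 against 1E5, none above 0. This was not particular to 1E5: with GW3965 the median was 3.51 in PANC-1 and 4.18 in BxPC-3, again all 5 above 0 and none passing. For RN7SK the 1E5 libraries held 50.04, 4.70 and 3.99 CPM against 2.22, 1.92 and 1.155 with DMSO, so replicate 1 was the high one. The part of these in the results for the 10 RNAs was not tested.

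**Figure D2:**
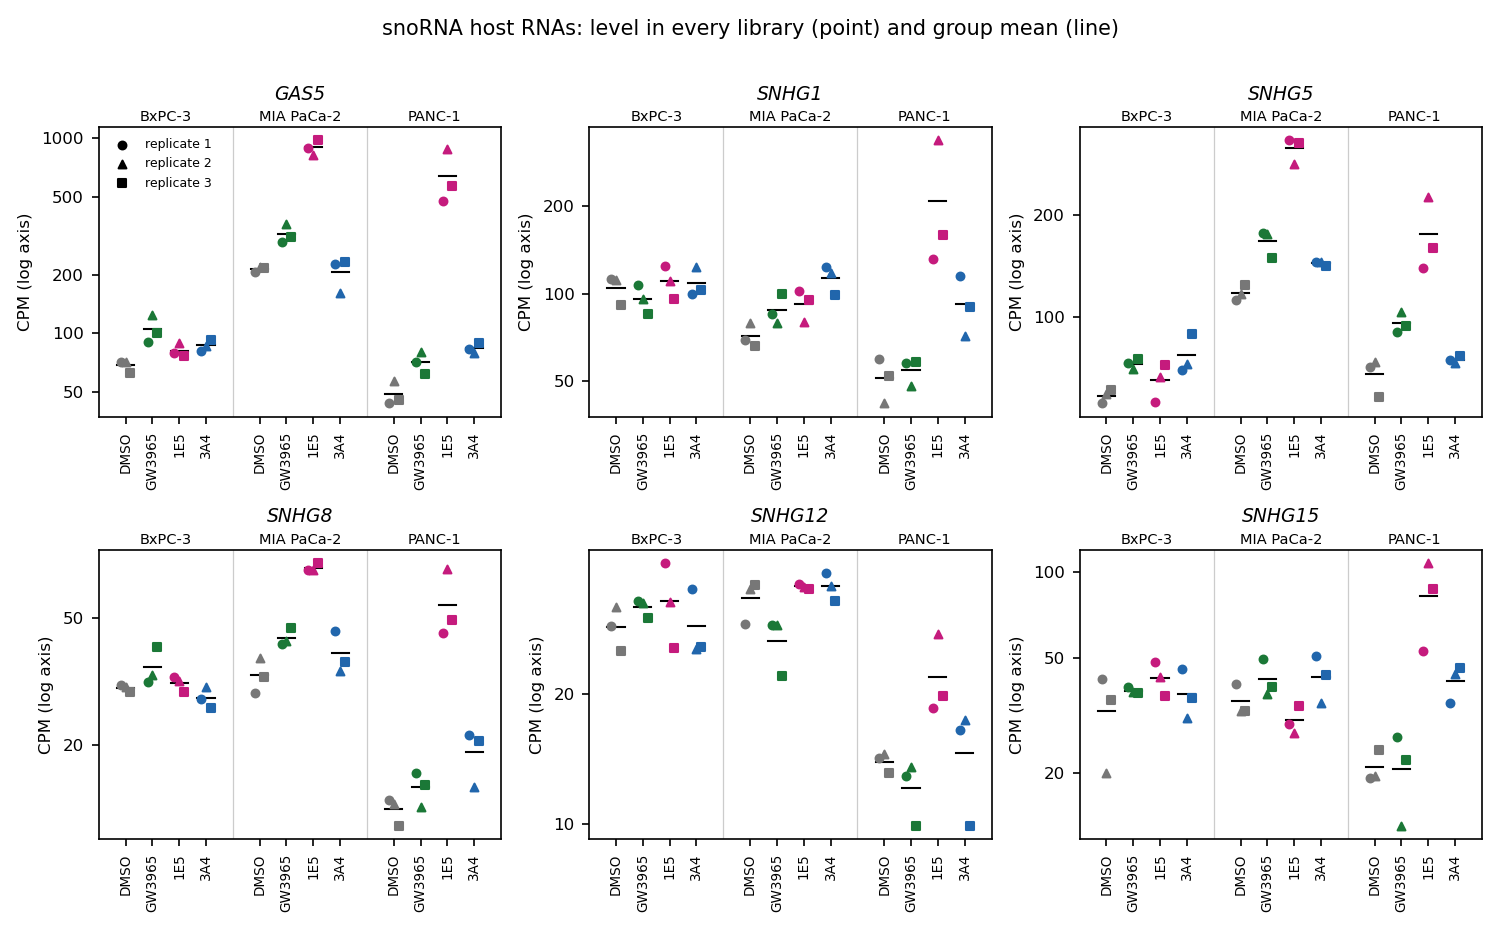
Level of 6 snoRNA host RNAs in all 36 libraries, in CPM on a log axis, by line and ligand; marker shapes are replicates and black lines group means. With 1E5 the libraries of all 6 lie above those of DMSO in PANC-1, and those of GAS5, SNHG5, SNHG8 and, narrowly, SNHG1 do so in MIA PaCa-2, while in BxPC-3 only those of GAS5 do, at 76.4 to 88.7 against 62.9 to 71.4 CPM.

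In BxPC-3 none of the 9 RNAs tested passed with 1E5, where 0% of all genes were called by edgeR (3.17% at an unadjusted p under 0.05, and 9 genes by DESeq2), and none of the 9 had an unadjusted p under 0.05 or passed with DESeq2. GAS5 was at 79.2, 88.7 and 76.4 CPM with 1E5 and 71.4, 71.4 and 62.9 with DMSO, groups that did not overlap, as for 8.43% of all genes, a log2 change of 0.25 with a 95% interval from -0.03 to 0.53. For SNHG8 the values were 31.2 ± 1.77 and 30.1 ± 0.771 CPM, and for SNHG1 111 ± 14.4 and 105 ± 11.7 CPM. The median log2 fold change of the 10 was 0.12, with H19 included as an untested value.

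The response to 1E5 differed among the lines for 7 of the 9 RNAs tested, where 38.5% of all genes did so (interaction of ligand and line, edgeR F test). GAS5 led these (adjusted p = 2.46e-10), followed by SNHG8 (2.1e-07), SNHG5 (4.15e-06), SNHG1 (2.83e-05), SNHG15 (4.44e-05), NEAT1 (0.00259) and EPB41L4A-AS1 (0.00688). MALAT1 and SNHG12 did not pass (0.102 and 0.189). SNHG15 and SNHG1 rose in PANC-1 and did not pass in MIA PaCa-2, where SNHG15 had a log2 fold change of -0.31, and SNHG5 rose by about the same factor in both (log2 1.33 and 1.38).

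With 3A4 few hosts changed. In MIA PaCa-2, 3 of the 10 RNAs passed, among them SNHG1, where 13.8% of all genes were called. SNHG1 had 123, 118 and 98.7 CPM with 3A4 and 69.3, 79.2 and 66.2 with DMSO, without overlap (1.49-fold; edgeR adjusted p = 0.0296). GAS5 stood at 227, 161 and 231 CPM, on both sides of the DMSO libraries (log2 -0.15, 95% interval -0.47 to 0.18). In PANC-1, 3 of the 10 passed, where 7.37% of all genes were called. GAS5 had 82.7, 79.2 and 89.3 CPM with 3A4, all above the 43.7 to 56.9 CPM of DMSO (1.74-fold; adjusted p = 0.0427). SNHG15 (2.02-fold; adjusted p = 0.0543), SNHG1 (1.81-fold; 0.122) and SNHG8 (1.53-fold; 0.0963) did not pass, though their 3A4 libraries lay above all DMSO libraries. The median log2 fold change of the 10 was 0.62 in PANC-1 and 0.13 in MIA PaCa-2, against 0.0149 and 0.0287 over all genes. Groups did not overlap for 7 of the 10 RNAs in PANC-1, as for 37.2% of all genes, and for 4 in MIA PaCa-2, as for 36.3%. Among markers in PANC-1, CD68 rose with 3A4 (log2 1.87) and COL1A1 and CDH1 fell (log2 -2.25 and -1.20). CDH1 was 1 of 6 epithelial markers, of which the other 5 did not pass. Of the 6, 2 had log2 changes above 0, and the median was -0.16. The part of these markers in the results was not tested. In MIA PaCa-2 the mitochondrial share was 5.53% to 6.62% with 3A4 against 7.52% to 7.58% with DMSO, without overlap, and the 3A4 libraries held 8889927 to 24588097 counts against 3609582 to 10996848. Their part was not tested either.

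Several 3A4 calls depended on single libraries, though not that of H19 in MIA PaCa-2, which passed in all 12 alternatives (highest adjusted p = 0.0226). That of SNHG1 in MIA PaCa-2 ended without 3A4 replicate 1 or 2 or any DMSO library (highest adjusted p = 0.092), and that of GAS5 in PANC-1 ended without any 1 of the 6 libraries (0.135). In a fit chosen after the data were seen, without replicate 2 of every PANC-1 group, GAS5 (adjusted p = 0.00997), SNHG1 (0.0189) and SNHG8 (0.0206) all passed, as did NEAT1 and H19. In BxPC-3 none of the 9 RNAs tested passed by edgeR or DESeq2, where 0.0333% of all genes were called. GAS5 and SNHG5 had an unadjusted p under 0.05 (12.7% of all genes had), with log2 changes of 0.35 and 0.41. Among the 9 RNAs tested, groups did not overlap for GAS5 and SNHG5 only, as for 18.9% of all genes. The groups of H19 did not overlap either, but H19 is left out here because it chose the list. The differences among lines passed for 0 of 9 RNAs by edgeR, where 5.89% of all genes did so, with 4 at an unadjusted p under 0.05 (NEAT1, GAS5, SNHG1 and SNHG8; 21% of all genes) and 2 by DESeq2.

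Both compounds were given at the same dose and time, so they were also compared with each other. In PANC-1, 6 of the 10 RNAs were lower with 3A4 than with 1E5 and none was higher, where 37.3% of all genes were called (18.8% lower and 18.5% higher). GAS5 was 7.61-fold lower (log2 -2.93 ± 0.224 SE; edgeR adjusted p = 5.5e-06), SNHG8 2.89-fold (adjusted p = 0.000215), EPB41L4A-AS1 2.36-fold (0.0079), SNHG5 2.33-fold (0.000247), SNHG1 2.26-fold (0.0131) and SNHG15 1.96-fold (0.0193). Without replicate 2 of every PANC-1 group the last call and that of EPB41L4A-AS1 ended (0.0651 and 0.0721), and SNHG1 was 1.38-fold lower in that fit (0.0431). The SNHG15 call also ended without 3A4 replicate 1 or 1E5 replicate 2 and the SNHG1 call without 3A4 replicate 2 (highest adjusted p = 0.0756 and 0.0559). SNHG12 (log2 -0.58; 95% interval -1.07 to -0.09) did not pass after adjustment (0.0621). The groups did not overlap for 7 of the 10, as for 49% of all genes.

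In MIA PaCa-2, 7 of the 10 differed between the compounds, 6 lower with 3A4 and H19 higher, where 32.4% of all genes were called (15.1% lower and 17.2% higher). GAS5 was 4.36-fold lower with 3A4 (adjusted p = 1.64e-06), SNHG5 2.18-fold (2.37e-05) and SNHG8 1.86-fold (0.000737), each without overlap between the groups. There was no overlap for 8 of the 10, as for 50.5% of all genes. EPB41L4A-AS1 spread from 5.82 to 25.4 CPM with 3A4, and its call (2.14-fold lower; adjusted p = 0.041) ended without 3A4 replicate 1 or 3 or any 1E5 library and was larger, log2 -1.78, without 3A4 replicate 2. SNHG12 was at 35.5 CPM with both compounds (log2 0.00, 95% interval -0.32 to 0.32). These comparisons share the 1E5 and 3A4 libraries with those against DMSO, and the comparisons against DMSO share their DMSO libraries, so none of them is independent of the others. In BxPC-3 the values of the hosts were close, with log2 differences from -0.19 for SNHG12 to 0.26 for SNHG5 (0.144% of all genes were called in this contrast, which chose the list).

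GW3965 was compared with DMSO to find what an LXR agonist changed. In BxPC-3, GAS5 alone of the 10 RNAs passed, where 1.32% of all genes were called. It had 90.7, 125 and 100 CPM with GW3965 against 71.4, 71.4 and 62.9 with DMSO, without overlap (1.56-fold; edgeR adjusted p = 0.0372). The call ended without GW3965 replicate 2 or 3 or any DMSO library (highest adjusted p = 0.137). In MIA PaCa-2 none of the 10 passed by edgeR, where 0.523% of all genes were called, although 4 had an unadjusted p under 0.05 (8.74% of all genes had). By DESeq2 GAS5 and SNHG5 passed. GAS5 had 295, 364 and 311 CPM there, above all DMSO libraries (1.49-fold; adjusted p = 0.188), and SNHG5 177, 176 and 150 CPM against 112 to 125 (log2 0.49; 0.142). In PANC-1 none passed by either tool, where 0.0485% of all genes were called, with 4 at an unadjusted p under 0.05 (4.48% of all genes). GAS5 (71.2, 80.5 and 61.7 CPM) and SNHG5 (90.5, 104 and 94.2 CPM) again lay above all DMSO libraries, 1.45-fold and 1.41-fold on the fitted scale, with adjusted p = 1 and 0.862. The GW3965 and DMSO groups did not overlap for 6 of the 10 RNAs in MIA PaCa-2 (13% of all genes), 4 in PANC-1 (12%) and 3 in BxPC-3 (17.4%). The fitted log2 changes of GAS5 with GW3965 were thus 0.64 in BxPC-3, 0.54 in PANC-1 and 0.58 in MIA PaCa-2, and their difference among lines had an adjusted p of 1. None of the 10 differed among lines in this response by edgeR without a replicate block or by DESeq2 (0.104% of all genes did; 1 of the 10, H19, had an unadjusted p under 0.05, as had 6.18% of all genes).

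**Figure D3:**
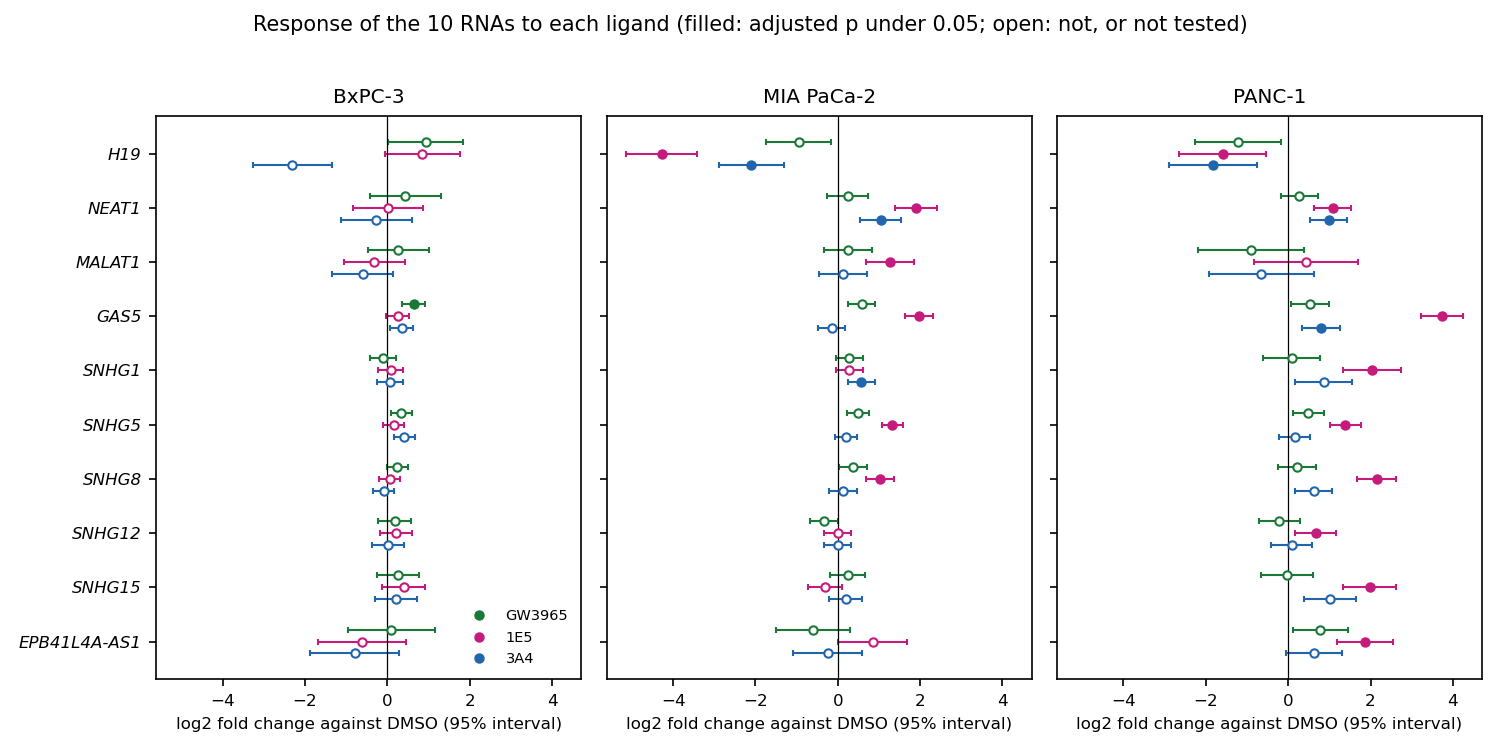
Log2 fold change of each RNA against DMSO with its 95% interval, by line and ligand; filled points have an adjusted p under 0.05, open points do not or were not tested. The 1E5 points of the hosts lie to the right of 0 in PANC-1, from SNHG12 at 0.665 to GAS5 at 3.73. In BxPC-3 the point farthest from 0 is H19 with 3A4 at -2.31. It was not tested, since H19 was put on the list for a difference seen in those 3A4 libraries.

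Other genes of the same kind were read beside the members, from lists chosen with earlier results of these data known. With 1E5 in PANC-1, 6 of 18 other snoRNA host long noncoding RNAs rose and 2 fell (median log2 0.46). Of all genes 19.7% were called higher and 19.3% lower there. ZFAS1, host of the SNORD12 family, rose from 40.7 ± 0.884 to 265 ± 72.7 CPM and SNHG32 from 61.3 ± 7.23 to 412 ± 140 CPM (2.05e-06 and 4.58e-06 as edgeR adjusted p). In MIA PaCa-2 3 of the 18 rose and 5 fell (median -0.18), where 23.6% of all genes were called higher and 23.4% lower. The list as a whole did not move one way in that line. ZFAS1 and SNHG32 were the leading genes there too, at 527 ± 86.3 against 69.1 ± 17.1 CPM and 446 ± 15.4 against 96.8 ± 9.96 CPM. With 3A4, SNHG17 rose in both lines, to 35.3 ± 2.00 from 17.9 ± 2.60 CPM in MIA PaCa-2 (adjusted p = 0.00577) and to 25.3 ± 2.49 from 11.4 ± 1.98 CPM in PANC-1 (0.0013).

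Protein-coding genes whose introns hold snoRNAs, many of them for ribosomal proteins, moved differently in the same lines. With 1E5, 14 of 22 rose and 2 fell in PANC-1 (median log2 0.64), against 19.7% and 19.3% of all genes. There TAF1D, a subunit of a polymerase I factor, rose from 56.7 ± 3.94 to 188 ± 84.6 CPM and RPL10 from 770 ± 120 to 1506 ± 352 CPM. In MIA PaCa-2, 1 of the 22 rose and 7 fell (median -0.24), against 23.6% and 23.4% of all genes. Among those that fell were EIF4A1, a helicase of translation initiation, from 672 ± 64.8 to 277 ± 20.5 CPM and RPL7A from 2111 ± 32.5 to 936 ± 69.9 CPM. Genes of the core proteins that bind snoRNAs followed no common direction, beside the same shares of all genes with 1E5. In MIA PaCa-2, 3 of 8 fell with 1E5, FBL, the methyltransferase fibrillarin, from 385 ± 35.2 to 102 ± 15.9 CPM, and in PANC-1 4 of 8 rose and 1, NOP56, fell from 162 ± 26.2 to 84.2 ± 24.3 CPM. With 3A4, 2 of 8 rose in each of these lines, NOP58 in both.

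Of 10 factors of nonsense-mediated decay, the pathway that removes spliced host transcripts, 6 rose and 1 fell with 1E5 in MIA PaCa-2 and 1 rose and 1 fell in PANC-1. Of all genes 23.6% rose and 23.4% fell in MIA PaCa-2, and 19.7% and 19.3% in PANC-1. The helicase UPF1 was the one that fell in both, from 147 ± 16.2 to 90.04 ± 2.54 CPM in MIA PaCa-2 (log2 -0.79; edgeR adjusted p = 0.000199) and in PANC-1 from 118 ± 13.8 to 84.3 ± 5.65 CPM (log2 -0.48; 0.00531). SMG1, the kinase that acts on UPF1, rose in MIA PaCa-2 from 151 ± 13.2 to 351 ± 41.0 CPM, and SMG6, an endonuclease of the pathway, rose in PANC-1 from 34.0 ± 1.56 to 51.7 ± 2.13 CPM. With 3A4, 1 of the 10, UPF3B, rose in MIA PaCa-2 (log2 0.82; adjusted p = 0.0386), where 13.8% of all genes were called. Whether these values have a part in the host RNA levels was not tested.

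**Figure D4:**
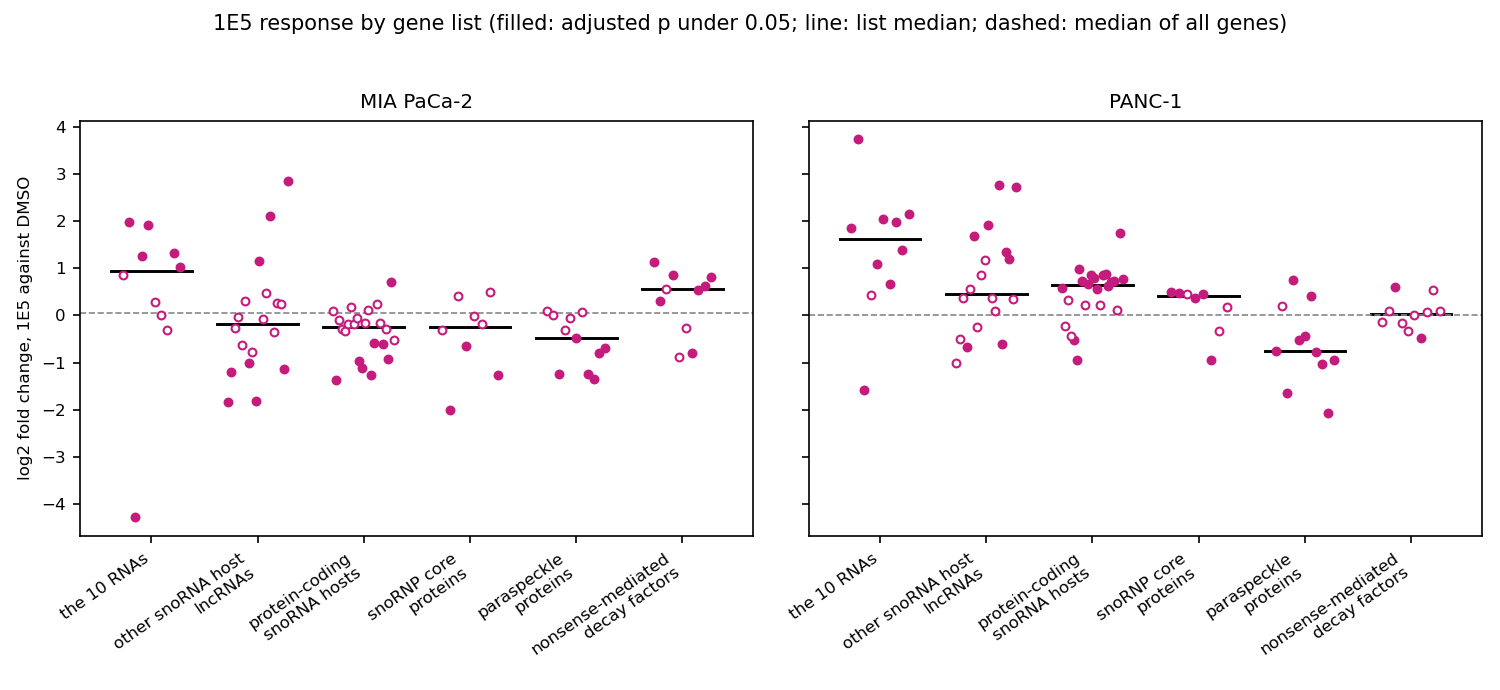
Log2 fold change of 1E5 against DMSO for the 10 RNAs and 5 lists of related genes in MIA PaCa-2 and PANC-1; filled points have an adjusted p under 0.05, black lines are list medians and the dashed line is the median of all genes. The median of the 10 RNAs is 1.62 in PANC-1 and 0.94 in MIA PaCa-2, protein-coding hosts lie at 0.64 and -0.24, and paraspeckle proteins at -0.75 and -0.47.

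The snoRNAs themselves were barely captured. Of the 27 listed snoRNAs of these hosts 12 matched a single identifier, and 5 passed the filter in BxPC-3, 3 in PANC-1 and none in MIA PaCa-2. SNORD25 in SNHG1 and SNORA9 in SNHG15 were listed with a count of exactly 1 in all 36 libraries. SNORD26, in an intron of SNHG1, was called higher with 1E5 in PANC-1 (edgeR adjusted p = 0.0201), with 22, 142 and 29 counts against 1, 15 and 13 with DMSO. The 142 counts were those of 1E5 replicate 2, the library that stood apart. SNORA44 in SNHG12 was called higher with 3A4 than with 1E5 there (0.0204), on 11, 4 and 8 counts against 1, 1 and 1. SNORD26 held a count of exactly 1 in 15 of the 36 libraries and SNORA44 in 23. How such values were made is not given in the sources used here. In these counts a mature snoRNA and the host intron it lies in cannot be told apart.

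NEAT1 rose with both compounds in MIA PaCa-2 and PANC-1. In MIA PaCa-2 it went from 141, 107 and 107 CPM with DMSO to 442, 576 and 401 with 1E5 and 242, 244 and 296 with 3A4, and the 3 groups did not overlap. The rise was 3.74-fold with 1E5 (log2 1.90 ± 0.235 SE; edgeR adjusted p = 4.12e-05) and 2.06-fold with 3A4 (0.0136), and the compounds differed 1.82-fold (0.0115). In PANC-1 it went from 122, 215 and 213 to 379, 386 and 396 CPM with 1E5 (2.12-fold; adjusted p = 0.00165; 2.10-fold without replicate 2) and to 362, 302 and 408 CPM with 3A4 (1.98-fold; 0.0164), and there the compounds did not differ beyond their spread (log2 -0.10, 95% interval -0.54 to 0.34). The 3A4 calls ended without MIA PaCa-2 DMSO replicate 3 (0.053) and without PANC-1 3A4 replicate 1 or 3 (highest 0.0744), and the difference between compounds in MIA PaCa-2 ended without 1E5 replicate 2 (0.0542). In BxPC-3 replicate 2 was the highest of all 4 groups, at 200 to 357 CPM, and no ligand changed NEAT1 beyond this spread (log2 0.44, 0.02 and -0.27 with GW3965, 1E5 and 3A4).

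Messenger RNAs of proteins that build paraspeckles on NEAT1 were mostly lower with 1E5. Of 11 measured, 6 fell and none rose in MIA PaCa-2 (median log2 -0.47), and 8 fell and 2 rose in PANC-1 (median -0.75). Of all genes 23.4% fell and 23.6% rose in MIA PaCa-2, and 19.3% and 19.7% in PANC-1. SFPQ, a core paraspeckle protein, fell from 411 ± 46.9 to 98.3 ± 27.4 CPM in PANC-1 (edgeR adjusted p = 6.23e-06). RBM14 and PSPC1 led the fall in MIA PaCa-2, from 52.6 ± 7.70 to 21.9 ± 4.51 CPM and from 56.9 ± 9.07 to 25.6 ± 2.08 CPM. With 3A4, 1 of the 11 rose in MIA PaCa-2, DAZAP1 (log2 0.54), where 13.8% of all genes were called. In PANC-1 SFPQ stood at 414 ± 16.9 CPM with 3A4.

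MALAT1 rose with 1E5 in MIA PaCa-2 from 154, 148 and 162 to 408, 345 and 437 CPM (2.41-fold; edgeR adjusted p = 0.00211) and was 2.21-fold lower with 3A4 than with 1E5 (0.0059), its 3A4 libraries at 167, 159 and 213 CPM. In PANC-1 it did not pass in any comparison. There replicate 2 stood apart in the DMSO group (556 CPM against 166 and 142) and the 1E5 group (773 against 174 and 199), but not with GW3965 (174 against 152 and 139) or 3A4 (176 against 178 and 187). Without replicate 2 of every PANC-1 group the log2 change with 1E5 was 0.26 (adjusted p = 0.123) and with 3A4 0.27 (0.217), against 0.43 and -0.65 with it. The log2 change with 1E5 was -0.63 without 1E5 replicate 2 alone and 1.31 without DMSO replicate 2 alone, neither of which passed (0.31 and 0.0899). In BxPC-3 the DMSO libraries spread from 124 to 307 CPM and no ligand changed MALAT1 beyond that. Of 18 other long noncoding RNAs tested in PANC-1, 5 rose and 6 fell with 1E5, and of 16 in MIA PaCa-2 8 rose and 3 fell. Of all genes 19.7% rose and 19.3% fell in PANC-1, and 23.6% and 23.4% in MIA PaCa-2. LUCAT1, a stress-induced noncoding RNA, was among the 2 leading genes with 3A4 in both lines: it had no count in the 3 MIA PaCa-2 DMSO libraries and 6.82, 5.84 and 5.57 CPM with 3A4, and rose from 0.269 ± 0.0574 to 3.59 ± 1.03 CPM in PANC-1.

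H19 was the one RNA of the 10 called lower with 1E5, in PANC-1 as well as MIA PaCa-2. In MIA PaCa-2 it fell from 10.5, 11.9 and 8.21 CPM with DMSO to 0.625, 0.497 and 0.54 with 1E5, which was 17, 13 and 14 counts, and to 3.36, 1.58 and 2.76 CPM with 3A4. All 3 groups were apart. The fall was 19.4-fold with 1E5 (log2 -4.28 ± 0.402 SE; edgeR adjusted p = 5.94e-06) and 4.30-fold with 3A4 (adjusted p = 0.00512), and H19 was 4.51-fold higher with 3A4 than with 1E5 (0.000963). With GW3965 it stood at 6.36, 3.70 and 6.38 CPM, below all DMSO libraries, without passing (log2 -0.95; 0.463).

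In PANC-1 H19 fell from 269, 326 and 225 CPM with DMSO to 44.3, 177 and 47.6 with 1E5 (3.01-fold; edgeR adjusted p = 0.0219) and to 59.8, 111 and 58.2 with 3A4 (3.55-fold; 0.0446). Replicate 2 was the highest in all 4 groups, most of all with 1E5. Without 1E5 replicate 2 the fall with 1E5 was 5.98-fold (adjusted p = 9.9e-05), and the call ended without 1E5 replicate 1 or 3 or DMSO replicate 2 (highest 0.074 over all alternatives); the 3A4 call ended without any 1 of the 6 libraries (0.157). Without replicate 2 of every PANC-1 group H19 was lower with GW3965 (log2 -1.25; adjusted p = 0.0194), 1E5 (-2.44; 4.34e-05) and 3A4 (-2.04; 0.00194). With all libraries the GW3965 values of 94.5, 148 and 113 CPM lay below all DMSO libraries and did not pass (adjusted p = 1). Between the compounds H19 had a log2 difference of -0.24 (95% interval -1.27 to 0.80), which was 0.40 without replicate 2 of every group and 0.75 without 1E5 replicate 2 alone (adjusted p = 0.0524 and 0.0584).

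In BxPC-3 the pattern of H19 was another one, given here as values because it chose the list. It had 104, 158 and 49.8 CPM with DMSO, 191, 258 and 113 with 1E5 and 22.3, 24.3 and 16.04 with 3A4. The 3A4 libraries lay below all others, 8.91-fold under 1E5 and 4.94-fold under DMSO, while the 1E5 libraries overlapped those of DMSO at 1.80-fold on average. No other of the 10 RNAs had separate groups in the contrast of 3A4 and 1E5 (19.7% of all genes had), the nearest in size being NEAT1 (log2 -0.29) and MALAT1 (log2 -0.29). Replicate 2 was the highest and replicate 3 the lowest for H19 in all 4 BxPC-3 groups. With GW3965, which the choice did not use, H19 had 184, 279 and 124 CPM, overlapping DMSO (log2 0.93, 95% interval 0.02 to 1.84; edgeR adjusted p = 0.401).

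**Figure D5:**
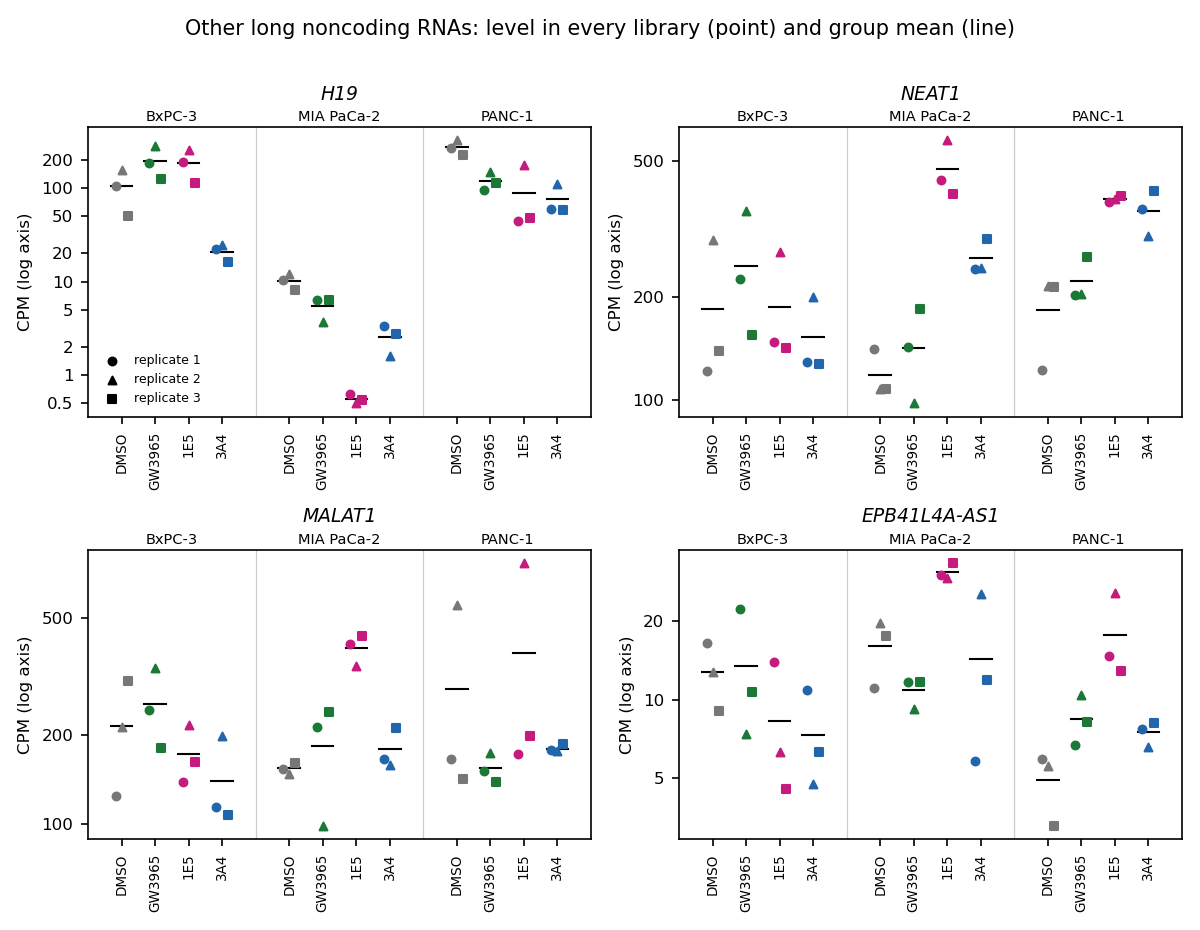
Level of H19, NEAT1, MALAT1 and EPB41L4A-AS1 in all 36 libraries, in CPM on a log axis, by line and ligand; marker shapes are replicates and black lines group means. H19 is lowest with 3A4 in BxPC-3 and with 1E5 in MIA PaCa-2, and MALAT1 replicate 2 stands apart at 556 and 773 CPM in 2 of the 4 PANC-1 groups.

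The 6 imprinted neighbours of H19 at 11p15 had a median log2 change of 0.14 with 1E5 in MIA PaCa-2, where H19 fell most. In PANC-1 with 1E5, 2 of the 6 rose and 1 fell, where 19.7% of all genes rose and 19.3% fell. IGF2, the growth factor gene that shares an enhancer region with H19, fell from 13.7 ± 4.26 to 5.52 ± 0.799 CPM (edgeR adjusted p = 0.00118), while SLC22A18 rose from 25.7 ± 2.01 to 85.7 ± 26.9 CPM (3.74e-05). With 3A4, PHLDA2 rose in MIA PaCa-2 (log2 0.84; adjusted p = 0.043). Without ligand 5 of the 6 were lower in BxPC-3 than in PANC-1, where 52.5% of all genes were called in either direction.

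Over the 12 groups H19 had the widest span of the 10, 493-fold between the means of PANC-1 with DMSO (273 CPM) and MIA PaCa-2 with 1E5 (0.554 CPM). GAS5 was next with 18.4-fold, from 48.7 CPM in PANC-1 with DMSO to 898 CPM in MIA PaCa-2 with 1E5, and MALAT1 had the narrowest at 2.83-fold. When the 12 groups were ordered by mean, 11 of the 11 neighbouring pairs had overlapping libraries for MALAT1, 10 for SNHG8, SNHG12 and EPB41L4A-AS1, 9 for NEAT1 and SNHG15, 8 for SNHG1, 7 for GAS5 and 6 for SNHG5 and H19, so most neighbours in these orders do not differ beyond their spread. For GAS5 the top of the order was MIA PaCa-2 with 1E5, PANC-1 with 1E5 (641 CPM) and MIA PaCa-2 with GW3965 (323 CPM). The 10 RNAs took 0.0815% of all counts in MIA PaCa-2 with DMSO and 0.253% with 1E5, and 0.1% and 0.208% in PANC-1, and GAS5 made up 5.21% of the counts of the 10 in PANC-1 with DMSO and 31.6% with 1E5.

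Genes whose level followed each RNA most closely were sought among 14517 genes tested in all lines, by Pearson correlation of log2 CPM over the 36 libraries after centring within each line. These values describe libraries that share lines, groups and depth. GAS5 was most like SNHG32 (r = 0.962), SNHG29 (0.955) and SNHG8 (0.954), all of them snoRNA hosts, and SNHG5 was most like SNHG32 and ZFAS1 (both 0.925) and the pseudogene TCEA1P2 (0.916). SNHG8 was most like ISCU (0.96), an iron-sulfur scaffold gene, GAS5 and CSNK2A3 (0.916), and SNHG1 most like C1orf52 (0.893), SNHG7 (0.887) and PFDN2 (0.886). The leading genes for the others were BCAM for H19 (0.858), ZNF432 for NEAT1 (0.829), HBP1 for MALAT1 (0.781), ST6GALNAC4 for SNHG12 (0.741), POLR3E for SNHG15 (0.832) and SETD4 for EPB41L4A-AS1 (0.723). Within the list GAS5 correlated with SNHG5 at 0.901 and with SNHG1 at 0.709, and H19 had negative values with all 9 others, from -0.562 with SNHG5 to -0.016 with SNHG12.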

How the data were processed

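RNA-seq of 36 libraries in 12 groups of 3 was analysed from the authors' deposited table of read counts per gene (whole numbers, not normalised). Per the submitters' processing notes, the tools were HISAT2 2.0.2 and StringTie 1.3.1c, with Trim Galore 0.4.4 and SAMtools 1.3, and the build was GRCh38. How reads were counted, strand included, is not given in the sources used here. Per the labels' protocols, 500 ng of column-purified total RNA went into a stranded library kit. Of 58658 lines, 407 naming a transcript and 8 others (at most 0.00396% of a library) were left out, which left 58243 genes, 57532 of them with a symbol. Gene models came from GENCODE release 29.

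In R 4.3.3, edgeR 4.0.16 fitted all 12 libraries of a line, or all 36 for comparisons of lines and for the interaction of ligand and line (TMM scaling, filterByExpr with minimum counts of 10 and 15, quasi-likelihood F test, Benjamini-Hochberg over all genes, threshold 0.05, intervals at 95%). The median standard error of a log2 fold change over all genes for 1E5 against DMSO was 0.242 in PANC-1, 0.264 in MIA PaCa-2 and 0.204 in BxPC-3. Standard errors and intervals were derived from the log2 fold change and its F statistic. Log2 CPM for correlations used a prior count of 2. Checked on simulated data, the fit of 1E5 against DMSO recovered 50% of genes changed 2-fold and 96% of those changed 4-fold in BxPC-3 (17792 genes), 52% and 92% in MIA PaCa-2 (15433 genes), and 57% and 89% in PANC-1 (17761 genes). Alternatives were DESeq2 1.42.0, RLE scaling, no filter, a replicate block, only the compared groups, without structural and mitochondrial RNAs, each library left out, and, chosen after seeing the data, no replicate 2 in PANC-1.

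The 10 RNAs and all gene lists were chosen with earlier results of these data known. Besides the 10, at most 2 genes per list and comparison were named, those with the smallest p among the genes called, as well as marker and structural RNA genes and the 3 genes most like each RNA. The values of SFPQ with 3A4 were added after its values were seen.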

Additional observations from a re-analysis of the deposited data

Results flagged for a closer look

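The response to 1E5 against DMSO differed among the lines for 7 of the 9 RNAs tested, by the interaction of ligand and line in edgeR (Benjamini-Hochberg adjusted over all genes). For GAS5 the adjusted p was 2.458e-10, with log2 changes of 0.25 in BxPC-3, 1.98 for MIA PaCa-2 and 3.73 for PANC-1, and for SNHG8 2.099e-07, with 0.06, 1.03 and 2.15 in that order. For SNHG5 it was 4.146e-06 (0.15, 1.33 and 1.38), for SNHG1 2.832e-05 (0.08, 0.28 and 2.04), for SNHG15 4.441e-05 (0.39, -0.31 and 1.98), for NEAT1 0.002594 (0.02, 1.90 and 1.08) and for EPB41L4A-AS1 0.006877 (-0.62, 0.85 and 1.86). Line and culture medium cannot be told apart for BxPC-3 against the others.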

How the results depend on the processing

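Over 2340 values of the 10 RNAs under all alternatives, 2236 stayed on their side of the threshold, 69 lost a call and 35 gained one. Of the 1696 that were log2 values, 59 had the other sign than with all libraries and the first choice of settings, and 0 of these 59 were called in either fit. With GW3965 in BxPC-3 the count of RNAs called was 1, and it was 0 without a filter on low counts, 0 with only the groups compared and 0 to 1 with 1 library left out. With GW3965 it was 2 instead of 0 by DESeq2 in MIA PaCa-2, and 1 (H19) instead of 0 without replicate 2 of every PANC-1 group. With 3A4 in PANC-1 it was 3, and 5 with only the groups compared, 5 without replicate 2 of every group, 6 by DESeq2 and 0 to 1 with 1 library left out. With 3A4 in MIA PaCa-2 it was 3, and 1 to 3 with 1 library left out. The 3A4 response differed by line for 0 RNAs, for 2 by DESeq2 and for 0 to 1 with 1 library left out (NEAT1 without BxPC-3 DMSO replicate 1). Other counts with 1 library left out were 5 to 8 for 3A4 against 1E5 in MIA PaCa-2 (7), 5 to 7 in PANC-1 (6), and 7 to 8 for the 1E5 response by line (7).

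The replicate numbers were not taken as pairs in the main fits, since the labels name nothing shared by libraries of the same number. Deviations of same-numbered libraries had a median correlation of 0.065 in PANC-1, 0.057 in MIA PaCa-2 and 0.091 in BxPC-3, and exceeded 0.1 in 4, 4 and 8 of 18 pairs, against medians of -0.035, -0.03 and -0.062 for different numbers. In the data, however, 11, 10 and 12 of 12 libraries correlated best with their own number. Something shared by number may thus add to the spread in the main fits, and counts near 0 there may miss changes. A replicate block gave 2 RNAs instead of 1 with GW3965 in BxPC-3 (H19 added), 1 (H19) instead of 0 for the GW3965 response by line and 2 instead of 0 for the 3A4 response by line (NEAT1 and GAS5). The block also added MALAT1 to the 1E5 response by line, SNHG15 to 3A4 against 1E5 in MIA PaCa-2 and SNHG12 to it in PANC-1, and ended the SNHG1 call of BxPC-3 against MIA PaCa-2. Over all genes, 239 were called with GW3965 in BxPC-3, 478 with the block, 90 with only the compared groups, 550 by DESeq2 and 68 to 151 with 1 library left out. With 3A4 in PANC-1 the count of 1367 was 2403 with only the compared groups, 2422 by DESeq2, 903 without the filter and 429 to 971 with 1 library left out. In BxPC-3 the 6 genes called with 3A4 were 275 with the block, 340 by DESeq2 and 0 to 7 with 1 library left out, and the 26 for 3A4 against 1E5 were 412, 433 and 0 to 39, and 9 with only the compared groups. With GW3965 the 85 genes of MIA PaCa-2 were 22 with only the compared groups, 255 by DESeq2 and 16 to 85 with 1 library left out, and the 9 of PANC-1 were 91 by DESeq2, 44 without replicate 2 of every group and 4 to 35. With 3A4 the 2235 of MIA PaCa-2 were 749 to 2497 with 1 library left out. For the response by line, the 23 genes with GW3965 were 52 with the block, 185 by DESeq2 and 14 to 39, and the 1304 with 3A4 were 2053, 2595 and 588 to 1931. The shallowest library, in MIA PaCa-2, held 2701393 counts.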
